A study of Mus musculus with 10 samples.

Results

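The mitochondrial ribosomal proteins were taken as every row annotated with a single gene symbol that starts with Mrpl or Mrps followed by a digit, which gave 79 genes of 30142 tested. Of these, 75 are protein-coding, 47 of the large subunit (Mrpl) and 28 of the small subunit (Mrps) by symbol, and 4 are pseudogenes (Mrpl23-ps1, Mrpl48-ps, Mrps36-ps1 and Mrps36-ps2). Each gene had 1 row. Mrpl30, Mrpl53 and Mrps6 share their rows with another symbol and are not analysed here. The cells were luminal epithelial cells of the mouse prostate, sorted on a Hoxb13-driven green fluorescent reporter, CD24 and intermediate CD49f after removal of CD45, F4/80 and CD11b positive cells, and their RNA was hybridised to whole-transcript Affymetrix ClariomD arrays.

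All mice were males that carried the Hoxb13-rtTA and TetO-H2BGFP transgenes and drank doxycycline at 2 mg/ml for 1 week. The label was thus driven by the Hoxb13 promoter in the presence of doxycycline. The intact group (n = 3 arrays) was not castrated, and its age at sampling is not stated in the sources used here. The castrated group (n = 3) lost the testes at 12 weeks of age and was left for 6 weeks of regression. The regenerated group (n = 4) was castrated in the same way and then given testosterone for 4 weeks by implant. The labels name biological replicates but do not state how many animals went into each array, and all p-values refer to the spread between these arrays. No group was castrated for the longer time without testosterone, so time and testosterone cannot be told apart.

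The mitochondrial ribosome translates the few messages of the mitochondrial genome, all of which encode membrane subunits of the respiratory chain and ATP synthase. Its RNA is made in the organelle, whereas all of its proteins are encoded in the nucleus, translated in the cytosol and imported. Many of them have counterparts in bacteria, and others are found only in mitochondria. Luminal prostate cells are known for exporting citrate that other cells would oxidise in their mitochondria.

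Values are log2 intensities after robust multi-array averaging (RMA), in which 1 unit is a doubling, and a change was called where limma's p, adjusted by the Benjamini-Hochberg method over all 30142 genes, was under 0.05. The intensity of a row depends on its probes, so levels are compared between arrays and not between genes. The means of the protein-coding members over the 10 arrays ran from 4.67 to 12.87 with a median of 8.05, and 63 of the 75 lay above the highest value of any background control row on any array. The rows with the lowest means were those of Mrpl33 and Mrpl44 in the large and Mrps28 and Mrps30 in the small subunit, at 4.67, 5.36, 5.64 and 6.21. Those with the highest were Mrpl42 and Mrpl24, at 12.87 and 11.67, and Mrps18c and Mrps17, at 12.69 and 10.01. In bulk RNA of this kind, fewer cells of a type and less RNA per cell cannot be told apart. Markers of luminal cells were present in every array but moved between the groups, as did signals of other cells, and their values are given with the marker lists at the end.

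Before single members, 2 arrays need mention. Regenerated replicate 4 held the lowest of the 4 regenerated values in 69 of the 75 protein-coding members. Intact replicate 3 held the highest of the 3 intact values in 55 of them. The median over these members was 7.63, 7.62 and 7.97 in intact replicates 1 to 3, 8.16, 8.11 and 8.31 in castrated replicates 1 to 3, and 8.11, 7.93, 8.07 and 7.47 in regenerated replicates 1 to 4. The castrated arrays lay above all intact arrays, and the regenerated arrays overlapped both groups.

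The first comparison asks how these genes differed after regression. Transcripts of 11 members rose in castrated arrays and limma called none lower. Before adjustment 28 had p under 0.05, all of them higher. The share of all genes under that unadjusted threshold was not counted, here or in later comparisons. Counted over all 30142 genes, 4.82% were higher and 3.19% lower, against 13.9% and none of the 79 members. The fitted difference was above 0 in 58 members and below 0 in 21, from -0.54 to 2.40 log2, with a median of 0.34 beside 0.04 over all genes. All 3 castrated arrays exceeded all 3 intact arrays in 31 members (17.4% of all genes did so), and the reverse held in 7 (11.5%). Many genes on the array lie near background, where changes are compressed. When genes with a mean less than 1 log2 above the background median of 3.03 were left out, 16 of 79 members rose among 18122 genes, of which 9.54% rose. The 31 members without overlap then stand beside 22.6% of those genes.

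**Figure D1:**
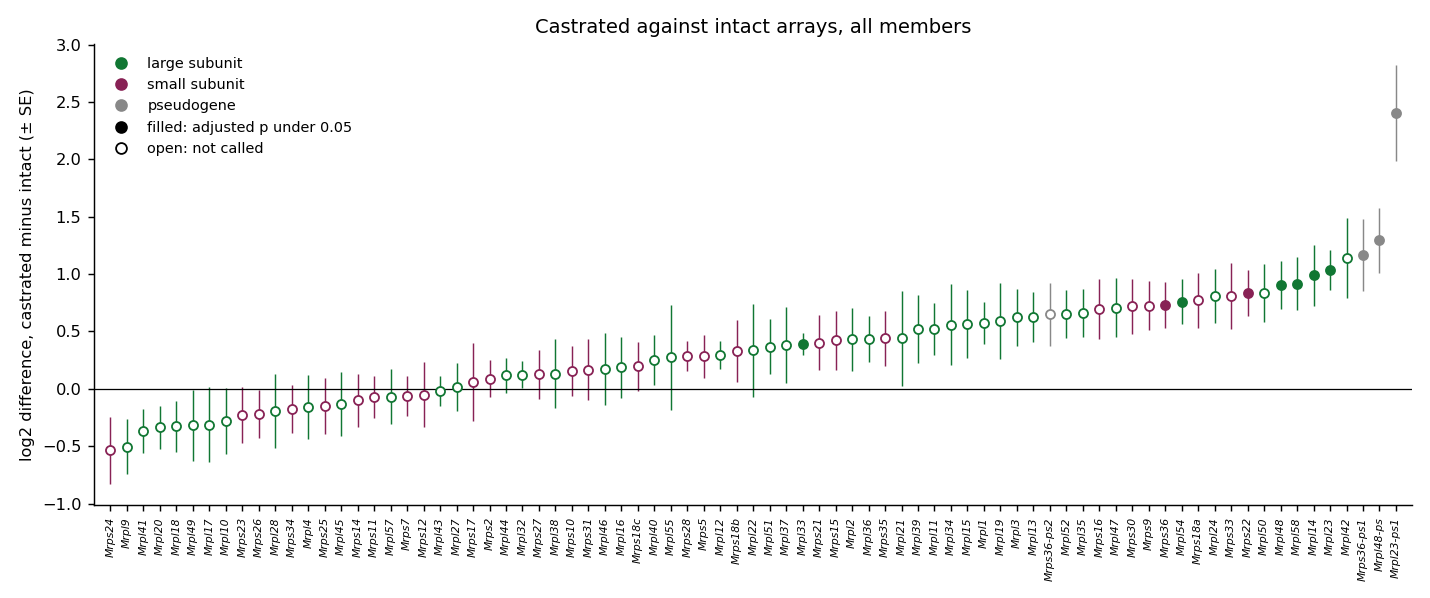
Fitted log2 difference of castrated minus intact arrays (vertical axis) with its standard error for each of the 79 members, ordered by size along the horizontal axis and coloured by subunit; filled points were called. The 11 called members are all above 0, and the 3 largest differences belong to pseudogenes.

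In the large subunit, 6 of 47 genes rose (12.8%, beside 4.82% of all genes). Mrpl23, whose product lies beside the exit of the peptide tunnel (transcript cluster TC0700002080.mm.1), measured 5.94, 5.99 and 6.33 in intact, 6.95, 7.06 and 7.36 in castrated, and 6.49, 6.32, 6.55 and 6.21 in regenerated arrays. The castrated values stood above all others. The difference of castrated from intact was 1.04 ± 0.18 log2 (SE), a 2.05-fold rise (limma adjusted p = 0.00578).

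Mrpl14, a conserved protein at the interface of the subunits (TC1700000869.mm.1), measured 10.10, 10.44 and 10.04 in intact and 11.29, 11.31 and 10.96 in castrated arrays. Regenerated replicates 1 to 4 measured 10.39, 10.46, 10.90 and 9.97, which spanned most of the gap between the other groups. The rise after castration was 0.99 ± 0.27 log2, or 1.98-fold (adjusted p = 0.0483).

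Mrpl58, a peptidyl-tRNA hydrolase built into the large subunit that frees stalled ribosomes (TC1100001892.mm.1, listed under its older symbol Ict1), measured 8.72, 8.59 and 9.06 in intact and 9.72, 9.75 and 9.63 in castrated arrays. Its regenerated values were 9.29, 9.15, 9.56 and 8.88, all under the castrated ones. It rose by 0.92 ± 0.23 log2, or 1.89-fold (adjusted p = 0.0359). Mrpl48, found only in mitochondrial ribosomes (TC0700003822.mm.1), measured 7.63, 8.04 and 8.18 in intact, 9.02, 8.87 and 8.68 in castrated and 8.24, 8.22, 8.39 and 7.99 in regenerated arrays. Again the castrated arrays were apart from both other groups, with a rise of 0.91 ± 0.21 log2 over intact (adjusted p = 0.0261).

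Mrpl54, also a mitochondria-specific protein (TC1000002534.mm.1), was tight among intact arrays at 6.67, 6.62 and 6.64 and measured 7.50, 7.42 and 7.30 in castrated arrays. Its regenerated values spread from 6.59 to 7.37, and so overlapped both groups. The rise was 0.76 ± 0.20 log2 (adjusted p = 0.0401). Mrpl33, a small component with a bacterial counterpart (TC0500003708.mm.1), lay under the highest background value in every array, at 4.44, 4.47 and 4.58 in intact and 4.98, 4.82 and 4.87 in castrated arrays. Its rise of 0.39 ± 0.10 log2 (adjusted p = 0.0361) may be compressed, and its annotation lists further gene identifiers under the same symbol.

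In the small subunit, 2 of 28 genes rose (7.14%, near the 4.82% of all genes). Mrps22, a mitochondria-specific protein in which mutations cause respiratory chain disease (TC0900002908.mm.1), measured 8.15, 8.40 and 7.93 in intact, 8.77, 9.12 and 9.09 in castrated, and 8.33, 8.36, 8.19 and 8.17 in regenerated arrays. Castrated arrays were above the other groups, by 0.83 ± 0.20 log2 over intact (adjusted p = 0.0279). Mrps36 (TC1300002541.mm.1) measured 6.38, 6.47 and 6.83 in intact, 7.32, 7.15 and 7.41 in castrated, and 7.25, 6.99, 7.23 and 6.71 in regenerated arrays. It rose by 0.73 ± 0.20 log2 after castration (adjusted p = 0.048), and its regenerated values reached into both groups. Despite its name, the protein of Mrps36 is known as a component of the oxoglutarate dehydrogenase complex of the citrate cycle.

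**Figure D2:**
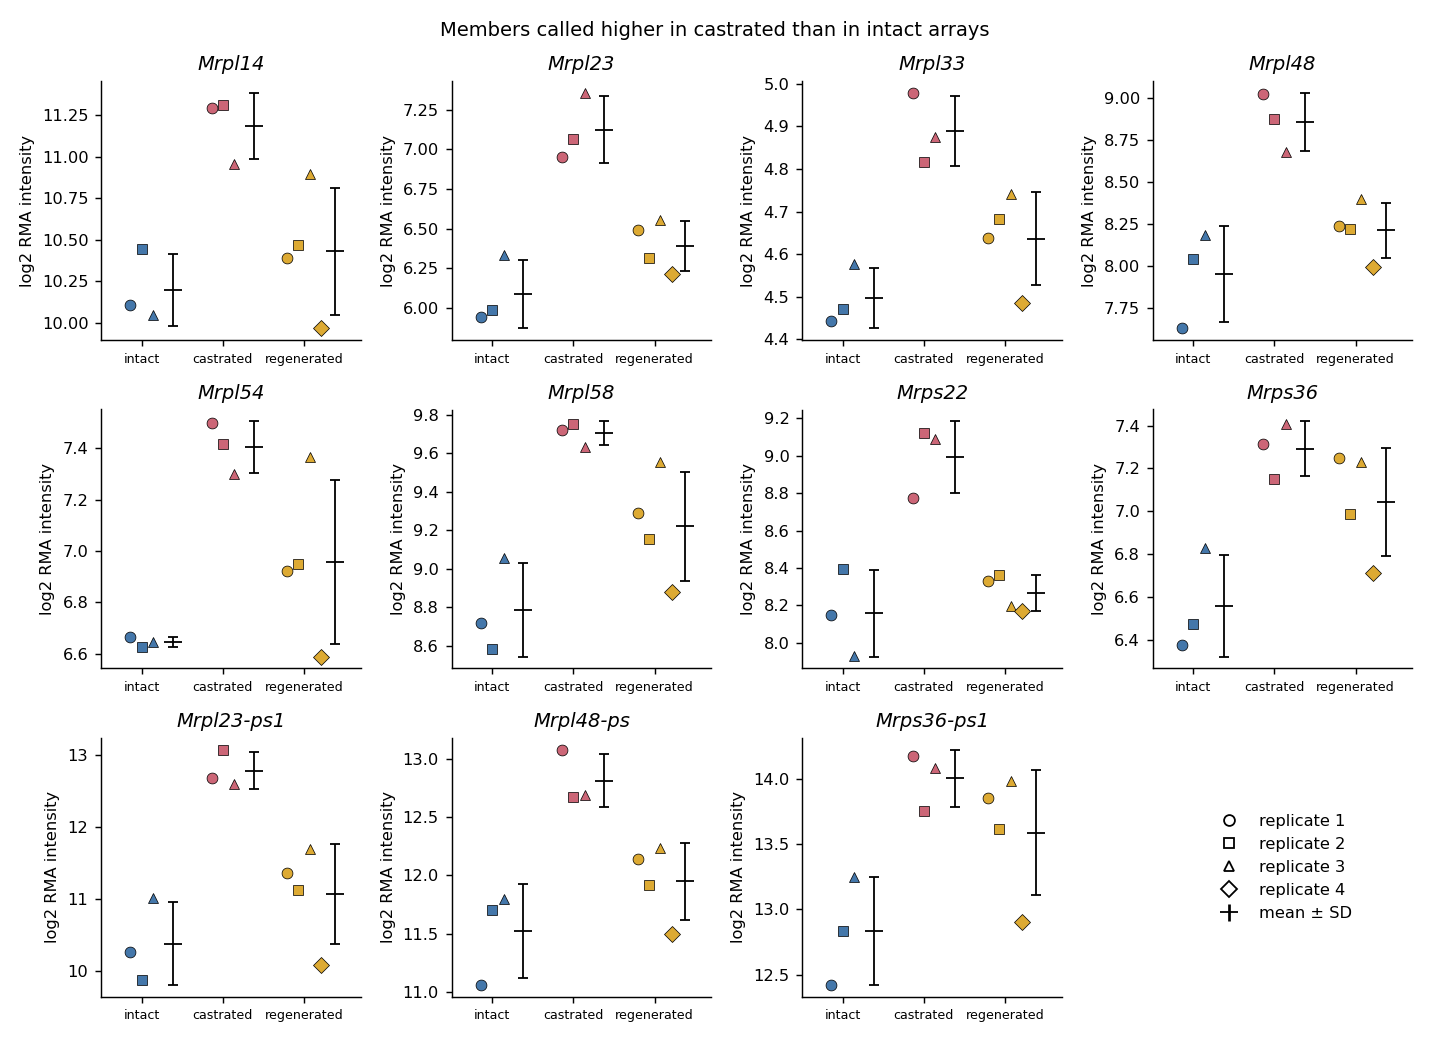
Log2 intensity (vertical axes, each with its own range) of the 11 members called in castrated against intact arrays, with 1 point per array and the mean ± SD of each group. In every panel the 3 castrated arrays lie above the 3 intact arrays, and regenerated replicate 4 (diamond) is the lowest regenerated array.

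Pseudogenes, copies that make no ribosomal protein, showed the largest differences. Mrpl23-ps1 (TC0200003773.mm.1) measured 10.26, 9.88 and 11.01 in intact, 12.68, 13.08 and 12.60 in castrated, and 11.37, 11.13, 11.69 and 10.09 in regenerated arrays. It was 2.40 ± 0.42 log2 higher in castrated than in intact arrays, or 5.29-fold (limma adjusted p = 0.00662), with no overlap. Mrpl48-ps rose by 1.29 ± 0.28 (adjusted p = 0.0193) and Mrps36-ps1 by 1.17 ± 0.32 (adjusted p = 0.0478), while Mrps36-ps2 was 7.44 ± 0.19 (SD) in intact and 8.09 ± 0.47 in castrated arrays (adjusted p = 0.201). The parent genes Mrpl23, Mrpl48 and Mrps36 are themselves among the 11, and RNA of a parent and of its copy can bind the same probes. These 6 rows are therefore uncertain as to their source, and 5 called members are without a copy among the rows. The 13.9% of members given above counts all 6. Of the 75 protein-coding members 8 rose, or 10.7%, beside 4.82% of all genes. Only 5 of these 8 are not parent genes. With the parents left out too, the share that rose is thus below 10.7% and nearer to the 4.82% of all genes.

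Mrpl23 and Mrpl23-ps1 were called in all 17 alternative settings followed by gene (adjusted p from 0.000951 to 0.0367 and from 0.000476 to 0.0356), whereas each of the other 9 lost its call in at least 3 of them. With intact replicate 1 left out, 2 members rose, and 3 did with intact replicate 2 left out. Leaving out castrated replicates 1, 2 and 3 in turn gave 3, 4 and 5 members, and leaving out regenerated replicates 1 and 2 gave 5 and 6. Omitting regenerated replicate 4, whose spread enters the common error, gave 18.

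Of the members not called, Mrpl42, a mitochondria-specific protein of the large subunit, had the largest difference, 12.34 ± 0.25 (SD, n = 3) in intact against 13.48 ± 0.20 in castrated arrays (1.14 ± 0.35 log2, adjusted p = 0.0773). In regenerated arrays it ran from 11.93 to 13.42. Among small-subunit genes, Mrps9, with a bacterial counterpart, went from 7.95 ± 0.17 in intact to 8.68 ± 0.29 in castrated arrays (adjusted p = 0.069). The 7 members that were lower in every castrated than in every intact array were Mrpl9, Mrpl10, Mrpl17, Mrpl18, Mrpl20, Mrpl41 and Mrps24, none of them called. The lowest fitted value was that of Mrps24, 9.03 ± 0.12 in intact and 8.49 ± 0.06 in castrated arrays (-0.54 ± 0.29 log2, adjusted p = 0.342). Mrps34 and Mrpl20, which were likewise lower in the fit (-0.17 and -0.34 log2), appear again under testosterone. The SD over all 10 arrays was smallest in Mrpl43 and Mrpl32, 0.09 and 0.10, and largest in Mrpl23-ps1 and Mrpl42, 1.13 and 0.61.

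Promoter sequences were set beside these values because the proteins are known to share activators of nuclear genes for mitochondria. In RefSeq (GRCm38.p6), 66 of the 75 protein-coding members had a window from 250 bases before to 50 bases after a gene start. Letters that fit 3 factors were searched on both strands: CCGGAAG for GABPA, an ETS factor, GCATGCGC for NRF1 and AAGATGGC for YY1. CCGGAAG and AAGATGGC can share the letters AAG, and a stretch that holds both was counted for each. CCGGAAG was present in 25 members (37.9%) against 12.3% of the 17970 tested genes with a window, GCATGCGC in 8 (12.1% against 3.83%) and AAGATGGC in 12 (18.2% against 3.51%). Most of the AAGATGGC matches lay on the same strand after the gene start, 11 to 36 bases from it. The letters include ATG, and whether these are translation starts was not checked. A gene with several windows was counted if any of them matched. The respective shares were 25.4%, 13.4% and 14.9% among oxidative phosphorylation subunits and 42.1%, 5.26% and 5.26% among cytosolic ribosomal proteins. Of the 8 protein-coding members that rose, 7 had a window, and 4 of these held CCGGAAG. Windows of 4 of them follow in the direction of transcription, with the matched letters in capitals, chosen to show windows with a double, a single, a paired and no match.

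Mrpl58 (chr11:115403502-115403801, plus strand): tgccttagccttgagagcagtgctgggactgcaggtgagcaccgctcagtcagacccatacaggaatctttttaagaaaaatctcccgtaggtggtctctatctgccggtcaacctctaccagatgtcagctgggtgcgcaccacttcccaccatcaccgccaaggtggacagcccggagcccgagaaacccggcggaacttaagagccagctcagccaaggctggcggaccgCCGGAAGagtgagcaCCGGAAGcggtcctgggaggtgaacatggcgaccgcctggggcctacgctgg
Mrps22 (chr9:98601630-98601929, minus strand): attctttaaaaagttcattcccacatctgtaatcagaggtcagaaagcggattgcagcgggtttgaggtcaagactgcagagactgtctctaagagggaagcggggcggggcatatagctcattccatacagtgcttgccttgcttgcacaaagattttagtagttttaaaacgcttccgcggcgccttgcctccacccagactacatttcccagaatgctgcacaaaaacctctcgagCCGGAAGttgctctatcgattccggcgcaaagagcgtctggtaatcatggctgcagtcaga
Mrpl33 (chr5:31613701-31614000, plus strand): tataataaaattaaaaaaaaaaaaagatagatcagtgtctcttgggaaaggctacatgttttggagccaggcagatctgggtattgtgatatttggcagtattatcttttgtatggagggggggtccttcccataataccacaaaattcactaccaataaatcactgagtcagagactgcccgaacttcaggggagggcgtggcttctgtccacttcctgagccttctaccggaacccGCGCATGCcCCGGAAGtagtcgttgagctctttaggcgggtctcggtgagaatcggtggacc
Mrpl14 (chr17:45686099-45686398, plus strand): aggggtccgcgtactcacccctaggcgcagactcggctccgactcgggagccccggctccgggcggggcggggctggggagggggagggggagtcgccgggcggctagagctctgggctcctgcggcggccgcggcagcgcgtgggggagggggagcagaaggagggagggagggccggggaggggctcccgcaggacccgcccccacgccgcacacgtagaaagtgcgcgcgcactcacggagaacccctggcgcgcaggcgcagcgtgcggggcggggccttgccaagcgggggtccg

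The window of Mrpl58 holds CCGGAAG at 2 places close to the start, that of Mrps22 holds it once, and that of Mrpl33 holds it just after GCATGCGC on the opposite strand. Mrpl14, which rose about as much as Mrpl58, has none of the 3 in its window. A match describes letters only.

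Large and small subunit were then compared within each array. The fitted difference of castrated from intact had a median of 0.38 log2 in the large subunit, with 12 of 47 genes below 0, and of 0.18 in the small subunit, with 9 of 28 below 0. Castrated arrays were above all intact arrays in 20 genes of the large subunit (42.6%) and 8 of the small (28.6%), beside 17.4% of all genes, or 22.6% with dim genes left out. The reverse held in 6 (12.8%) and 1 (3.57%), beside 11.5% of all genes. The median level of the large subunit was 7.52, 7.62 and 8.16 in intact, 8.27, 8.11 and 8.31 in castrated, and 8.11, 7.93, 7.99 and 7.45 in regenerated arrays. For the small subunit these values were 7.75, 7.74 and 7.94, then 8.11, 8.09 and 8.02, then 8.03, 7.92, 8.19 and 7.71. Only the small subunit separated castrated from intact arrays in the median, since intact replicate 3 overlapped the castrated range in the large subunit.

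The large minus small difference of medians was -0.04 ± 0.24 (SD, n = 3) in intact, 0.15 ± 0.14 (n = 3) in castrated and -0.09 ± 0.16 (n = 4) in regenerated arrays. Single arrays ran from -0.24 to 0.22, from 0.01 to 0.29 and from -0.25 to 0.08. The groups overlapped. The intact mean changed sign with single arrays: it was 0.05 without replicate 1 and -0.18 without replicate 3, and 0.02 with pseudogenes counted by symbol. The castrated mean ran from 0.08 to 0.22 and the regenerated mean from -0.15 to -0.03 with 1 array left out. Names and structure disagree for 3 genes: the proteins of Mrps18a and Mrps30 sit in the large subunit of the assembled particle, and that of Mrps36 in neither. With these reassigned, the means were -0.10, 0.10 and -0.18. Mrps18a went from an intact level of 8.83 ± 0.30 to 9.60 ± 0.17 after castration (limma adjusted p = 0.08), and Mrps30 from 5.86 ± 0.46 to 6.58 ± 0.29 (adjusted p = 0.108).

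**Figure D3:**
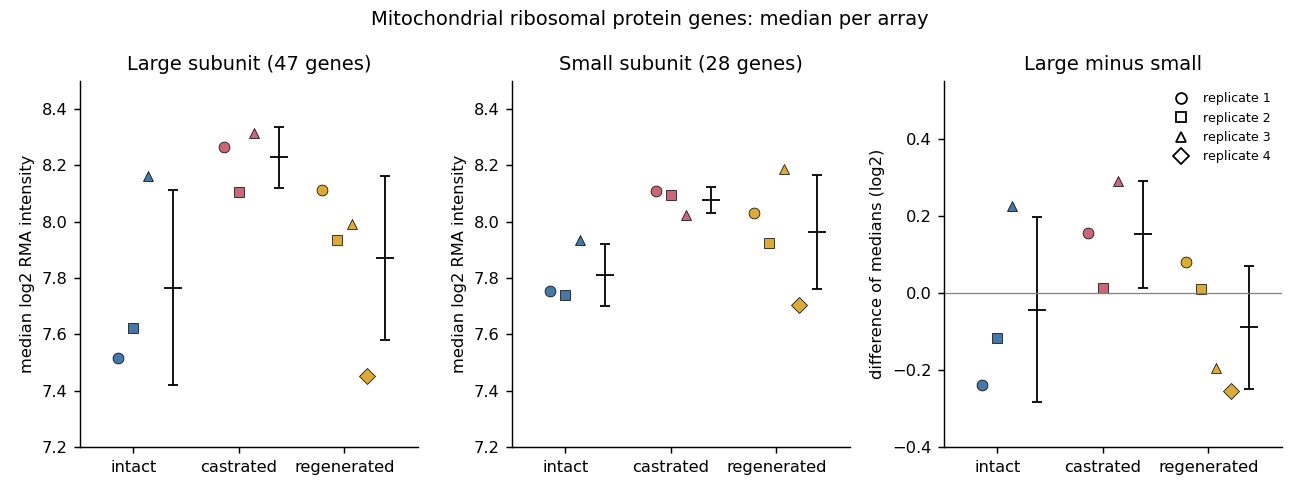
Median log2 intensity of the 47 large-subunit and 28 small-subunit genes in each array, and their difference (log2), by group; symbols mark the replicate number, and bars show the mean ± SD over arrays. Castrated arrays are above all intact arrays in the small subunit only, and the large minus small difference overlaps between the 3 groups.

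Ancestry was assigned by symbol number, so the classes are approximate. Among 43 proteins classed as bacterial type 3 genes rose (6.98%, near the 4.82% of all genes), with a median difference of 0.29 log2. Among 32 classed as found only in mitochondria 5 rose (15.6%), with a median of 0.35. These 5 include Mrps36, whose protein sits in neither subunit, and Mrpl48, a row of uncertain source. Mrpl23, among the 3 of bacterial type, is likewise of uncertain source. The difference between the classes was not tested.

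The second comparison asks what followed when castrated mice received testosterone. It shares the castrated arrays with the first, so a fall here is not independent of a rise there. Limma called no member higher and 2 lower. Before adjustment 18 had p under 0.05, of which 2 were higher and the others lower. The calls stand against 1.97% higher and 3.01% lower over all genes, so the share that fell (2.53%) is near the background. Mrpl23 went from 7.12 ± 0.21 (SD, n = 3) in castrated to 6.39 ± 0.16 (n = 4) in regenerated arrays, a difference of -0.73 ± 0.16 log2 (SE; limma adjusted p = 0.031). Its copy Mrpl23-ps1 went from 12.79 ± 0.26 to 11.07 ± 0.69, or -1.72 ± 0.39 (adjusted p = 0.0326). Both calls ended without castrated replicate 2, castrated replicate 3, intact replicate 1 or regenerated replicate 2. That of Mrpl23 also ended without intact replicate 2 or regenerated replicate 3, and that of Mrpl23-ps1 without castrated replicate 1.

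No gene of the small subunit passed. The 2 largest differences were those of Mrps22, 8.99 ± 0.19 against 8.26 ± 0.10 (-0.73 ± 0.19 log2, adjusted p = 0.0505), and Mrps9, 8.68 ± 0.29 against 7.99 ± 0.19 (-0.69 ± 0.20, adjusted p = 0.083). In both, every regenerated array was under every castrated array. That held in 17 members in all (9.51% of all genes, and 13.3% with dim genes left out), and the reverse in Mrpl20 and Mrps34 (6.53%). The median difference was -0.19 log2 over the members, beside -0.01 over all genes, and -0.05 without regenerated replicate 4. When dim genes were left out, 3 members fell, where 6.36% of 18122 genes did.

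In the third comparison, regenerated against never-castrated arrays, limma called no member in either direction, and 5 had an unadjusted p under 0.05. All 5 were higher in regenerated arrays, but a few of 79 genes would pass that threshold without any change. Over all genes 0.0332% were higher and 0.00332% lower. The median difference was 0.12 log2, beside 0.01 over all genes, but 0.28 without regenerated replicate 4, 0.05 without regenerated replicate 3 and 0.18 without intact replicate 3. Every regenerated array exceeded every intact array in Mrpl12 and Mrpl50 (6.42% of all genes), and the reverse held in none (3.23%). Mrpl50, a mitochondria-specific protein of the large subunit, was 9.65 ± 0.34 in intact, 10.49 ± 0.07 in castrated and 10.52 ± 0.28 in regenerated arrays. Its difference from intact after testosterone was 0.87 ± 0.23 log2 (adjusted p = 0.269). Mrps21, with a bacterial counterpart, went from 7.87 ± 0.28 to 8.44 ± 0.33 (adjusted p = 0.413). Of the copies, Mrpl23-ps1 differed by 0.69 ± 0.39 log2 (adjusted p = 0.627) and Mrps36-ps1 by 0.75 ± 0.29 (adjusted p = 0.415).

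The other genes of mitochondrial translation were followed as a list of 69, of which 66 were measured. After castration 6 rose and 2 fell, or 9.09% and 3.03%, beside 4.82% and 3.19% of all genes, so the share that fell is near the background. With dim genes left out, 7 of at most 66 rose, beside 9.54% of 18122 genes. The share that rose is not far from that background either. The list's median was 0.13 log2, beside 0.04 over all genes. Of 24 genes of ribosome assembly 2 rose and 1 fell (8.33% and 4.17%, near the 4.82% and 3.19% of all genes). Fastkd2, which binds the large ribosomal RNA, measured 5.99, 5.62 and 6.45 in intact and 7.56, 7.56 and 7.26 in castrated arrays, and rose by 1.44 ± 0.22 log2 (limma adjusted p = 0.00348). After testosterone it measured 6.29, 6.34, 6.32 and 5.88 and fell by 1.25 on the log2 scale (adjusted p = 0.0071), the only listed gene called in that comparison (2 genes were called without intact replicate 3 or without regenerated replicate 4). Mterf3, a factor that holds down mitochondrial transcription, rose by 1.02 ± 0.20 after castration (adjusted p = 0.0106).

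Rbfa, which matures the RNA of the small subunit, went the other way, at 9.79, 9.64 and 9.79 in intact and 9.13, 8.62 and 8.35 in castrated arrays, a difference of -1.04 ± 0.27 log2 (limma adjusted p = 0.0384). Among 15 translation factors 2 rose (13.3%, beside 4.82% of all genes). Oxa1l, the insertase that receives new membrane proteins, rose by 1.45 ± 0.30 (adjusted p = 0.0149) and the ribosome recycling factor Mrrf by 1.04 ± 0.25 (adjusted p = 0.0317). Of 19 genes for charging mitochondrial tRNAs 1 rose and 1 fell (5.26% each, near the 4.82% and 3.19% of all genes). Wars2 rose by 0.47 ± 0.11 (adjusted p = 0.0292) and Mars2, for methionine, differed by -0.97 ± 0.24 (adjusted p = 0.0354). Of 4 transcription genes 1 rose (25.0%), the elongation factor Tefm, by 1.36 ± 0.25 (adjusted p = 0.00848). Of these 8 calls the number fell to 2 when intact replicate 1 was left out, to 4 for intact replicate 2, to 4 for castrated replicate 2 and to 3 for castrated replicate 3.

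Limma called none of the 4 measured ribosomal proteins with other symbols in any comparison, and none had an unadjusted p under 0.05. Dap3, a GTP-binding protein of the small subunit, was 10.62, 10.66 and 10.17 in intact and 9.97, 9.76 and 9.64 in castrated arrays (limma adjusted p = 0.318), and Chchd1, of the same subunit, 11.07, 11.16 and 11.02 against 11.62, 11.61 and 11.78 (adjusted p = 0.284). Chchd1 was thus higher in every castrated than in every intact array and Dap3 lower, as was Gadd45gip1, a large-subunit protein, at 4.97 ± 0.04 and 4.76 ± 0.11 (adjusted p = 0.627). Of 9 measured regulators of mitochondrial biogenesis limma called none in any comparison. None had an unadjusted p under 0.05 after castration, and 2 had one in each of the other comparisons. Ppargc1a, a coactivator of that program, was 10.14, 10.38 and 8.68 in intact, 9.27, 10.94 and 9.80 in castrated, and 8.58, 8.58, 8.31 and 7.58 in regenerated arrays (adjusted p = 0.0731 for regenerated against castrated).

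A pair of related sets are given for comparison by count only, with no test of the difference. Of 46 cytosolic ribosomal proteins 10 rose after castration (21.7%, beside 4.82% of all genes) and limma called none lower, with a median of 0.36 log2. All 21 with an unadjusted p under 0.05 were higher. Castrated arrays were above all intact arrays in 32 (69.6%, beside 17.4%). After testosterone 7 fell (15.2%, beside 3.01%) and limma called none higher, nor was any higher at an unadjusted p under 0.05. Of 85 subunits of oxidative phosphorylation 3 rose and 2 fell after castration, with a median of 0.06 log2. These shares, 3.53% and 2.35%, are below the 4.82% and 3.19% of all genes.

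**Figure D4:**
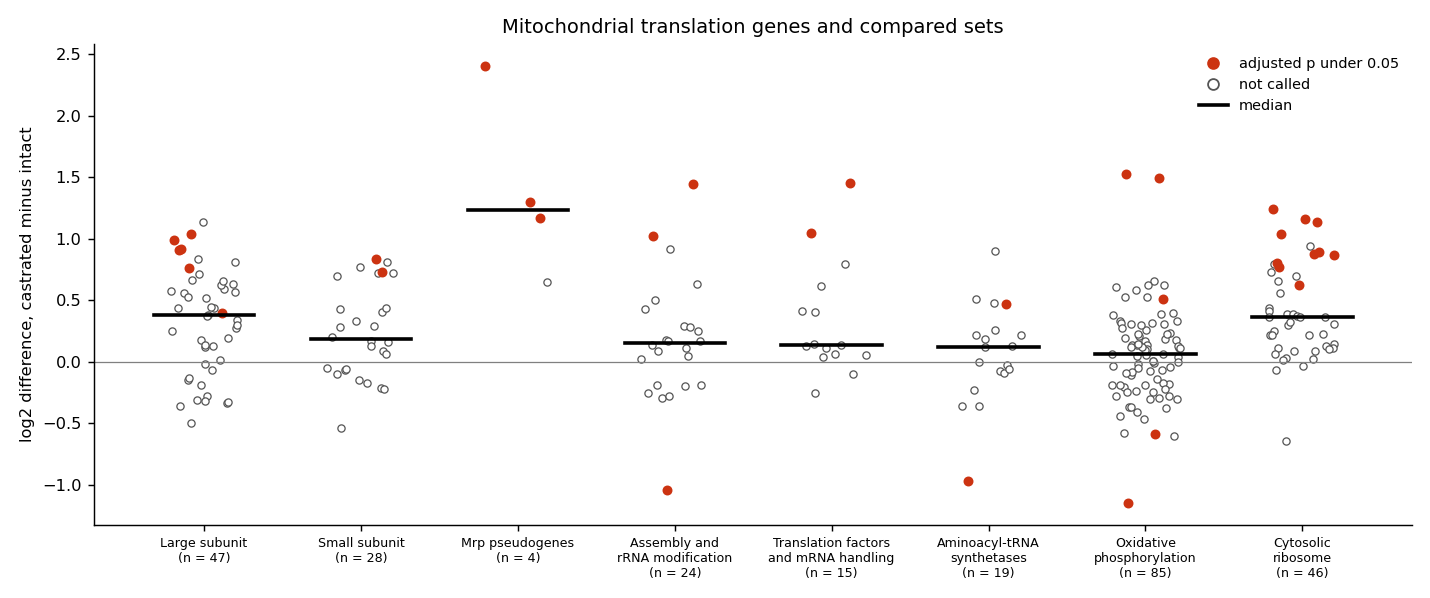
Log2 difference of castrated minus intact arrays (vertical axis) for each gene of the mitochondrial ribosome and of 5 compared sets, with medians as bars and called genes in red. The medians of the large subunit (0.38) and the cytosolic ribosome (0.36) are above that of oxidative phosphorylation (0.06).

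Luminal markers moved in both directions between the same groups. Of 7 measured, 4 rose and 1 fell after castration (median 1.04 log2), and 2 rose and 2 fell after testosterone. The luminal keratin Krt8 was 15.83 ± 0.63 in intact, 17.20 ± 0.46 in castrated and 15.15 ± 0.36 in regenerated arrays (limma adjusted p = 0.0364 after castration). Hoxb13, whose promoter drives the reporter, was 10.39 ± 0.17, 7.74 ± 0.20 and 9.47 ± 0.86, a difference of -2.65 ± 0.42 log2 after castration (adjusted p = 0.00416). The summed luminal signal ran from 19.07 to 19.29 in intact, 19.70 to 19.99 in castrated and 19.71 to 19.87 in regenerated arrays.

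Markers of other cells varied as well. The summed signal of 4 seminal vesicle genes (log2 of summed intensities) ran from 10.32 to 15.16 in intact, from 7.26 to 7.76 in castrated and from 6.89 to 15.81 in regenerated arrays. Their median was 11.37, 9.90 and 6.51 in intact replicates 1 to 3 and 7.58, 8.68, 5.11 and 10.91 in regenerated replicates 1 to 4. The regenerated array with the highest seminal vesicle signal had the lowest median of ribosomal genes, and the intact array with the lowest had the highest. The other ends did not match. Regenerated replicate 3, lowest in seminal vesicle signal, had a ribosomal median of 8.07, under the 8.11 of replicate 1. Intact replicates 1 and 2 had nearly equal ribosomal medians, 7.63 and 7.62. Limma called none of the 4 after castration, and 3 had an unadjusted p under 0.05. Of 5 basal markers 2 rose after castration and 1 fell after testosterone. The summed signal of the 5 ran from 9.93 to 10.16 in intact, 10.58 to 11.62 in castrated and 11.47 to 14.02 in regenerated arrays. Their median level averaged 4.75, 5.35 and 4.72 in these groups, so sum and median differ for regenerated arrays. Regenerated against intact, the largest basal difference was 2.53 log2 and the median 0.17. Of 7 leukocyte markers 1 rose after castration, Itgam, by 0.38 ± 0.08 log2 (limma adjusted p = 0.0181), and 6 were fitted above 0. Their summed signal was 8.34 to 9.97 in intact, 11.79, 12.01 and 9.33 in castrated replicates 1 to 3, and 8.43 to 9.57 in regenerated arrays. Cd3e, a T cell gene, measured 7.58, 8.18 and 5.40 in intact and 11.32, 11.76 and 8.26 in castrated arrays, a difference of 3.39 ± 0.93 log2 (adjusted p = 0.0507), and fell after testosterone (adjusted p = 0.0253). Ptprc, the gene of the sorted-out antigen CD45, lay between 3.55 and 3.76 in all 10 arrays. Of 7 stromal markers 1 fell after castration and 1 rose after testosterone. Their summed signal was 11.45 to 12.78 in intact, 7.63 to 9.33 in castrated and 11.01 to 11.93 in regenerated arrays. That sum follows the gene with the largest fall, -4.70 log2 after castration, whereas the median of the 7 differences was 0.02. Their median level averaged 4.07, 4.06 and 4.08 in the 3 groups. Limma called none of 4 endothelial markers, none of which had an unadjusted p under 0.05. The part of these signals in the results was not tested.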

How the data were processed

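RNA of 10 sorted samples was measured on 1 ClariomD (MTA-1.0) array each. The deposited table holds log2 intensities, for which the submitters' processing notes name RMA and Affymetrix Expression Console. RMA forces arrays to a common distribution, so a change of all transcripts one way would be reduced. Software versions and genome build are not given in the sources used here. The number of arrays sets the precision.

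Gene names came from the supplied platform annotation, with 827 symbols updated by gene identifier against a RefSeq table. Of 65956 non-control rows, 30604 had 1 symbol, 2146 had several and 33206 had none listed. The row with the highest mean was kept per gene, which left 30142 genes. The fit used limma 3.58.1 under R 4.3.3 (lmFit, then eBayes with a trend) over the 3 groups, with 7 residual degrees of freedom, two-sided tests and Benjamini-Hochberg adjustment within each contrast. Scripts were tested on simulated data.

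Members and lists were chosen with earlier results of these data known. Members were named where called, or as the 2 largest differences of a subunit without calls, with those of extreme level or spread; others named here were chosen after their values were seen. From each further list up to 3 called genes were named. Alternatives were adjustment over all rows, no trend, array weights, a replicate block, centring, leaving out dim genes, averaging rows and leaving out each array. After seeing the data, leaving out pseudogenes and their parents, and counting pseudogenes by symbol, were added.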

Additional observations from a re-analysis of the deposited data

Results flagged for a closer look

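Of 28 values tested for an outlying array among the 4 regenerated arrays, 1 stood apart. The 28 values did not cover every member, and members outside them were not screened in this way. Mrps18c, a small-subunit gene of bacterial type, measured 12.27 in regenerated replicate 4, against 12.64 to 12.68 in the other regenerated arrays, a gap of 0.911 of the whole range. Chance alone would mark about 1 in 20 such values if they were independent. These values share the same arrays, so that rate is no guide here. Regenerated replicate 4 was the lowest regenerated array in 69 of the 75 protein-coding members. Mrpl39, which was not flagged, measured 10.69 in that array, against 11.50 to 11.55 in the other regenerated arrays. Mrps18c is thus the only one flagged among the values tested, and not the only member with a low value apart in regenerated replicate 4.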

How the results depend on the processing

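Under the alternatives run for it, the members' median difference ran from 0.24 to 0.41 log2 for castrated against intact. It ran from -0.25 to -0.05 for regenerated against castrated and from 0.05 to 0.28 for regenerated against intact. The large minus small mean of intact arrays ran from -0.18 to 0.05 and so changed sign. Leaving out 1 array moves a group mean by less than the spread in any case, so those settings cannot show stability. Castrated against intact, 11 members were called, and 3 with adjustment over all non-control rows, 3 with each array centred on its median, 24 with array weights, 5 without pseudogenes and their parent genes (8 without pseudogenes alone), and 2 to 18 when 1 array was left out. The list of other translation genes had 8 calls, 4 with all rows, 13 with array weights and 2 to 9 with 1 array left out. Regenerated against castrated, 2 members were called, 0 with all rows, 7 without the trend, 1 without pseudogenes, 0 without pseudogenes and their parents and 0 to 2 with 1 array left out. That list had 1 call, 2 with array weights, 2 with the replicate block and 1 to 2 with 1 array left out. The replicate block gave 15 members for castrated against intact and 2 for regenerated against castrated. The labels give same-numbered arrays no shared source. Deviations of same-numbered arrays correlated from -0.157 to 0.264, and those of different-numbered arrays from -0.32 to 0.25. With so few arrays these values cannot settle whether the numbers pair them. The causes were not tested. For the 19 pairs of member and comparison refitted under 17 settings (those called, and the largest differences where none was), no value reversed. Of the refitted values, 86 lost and 4 gained a call, and 233 kept their side of the threshold. Other members named were not followed this way. Array number, and signal near background for the dimmest members, limit what can be seen.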
